A study of Mus musculus with 12 samples.

Results

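The genes described here are the 10 members of the MYC and MLX transcription factor network that were measured: Myc, Max, Mxd1, Mxd3, Mxd4, Mxi1, Mnt, Mga, Mlx and Mlxip. They were taken by symbol from a table of 23479 genes, and all 10 were found. All 10 also passed the filter on low values, which kept 13111 genes. MYC drives growth genes as a dimer with MAX on the DNA letters CACGTG, called an E-box. The MXD proteins and MNT compete for MAX and, as MAX dimers, recruit the SIN3 corepressor to the same letters. MGA is a MAX partner that works within a Polycomb complex, and MLX pairs with the glucose-sensing factor MLXIP (also called MondoA) and with some MXD proteins and MNT. In B cell precursors a Myc transgene under the Eµ enhancer is known to cause lymphoma.

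RNA was sequenced from cultured cells of 1 such lymphoma, taken from the lymph node of a C57BL/6 mouse that carried the Eµ-Myc and Eµ-rtTA transgenes, so all 4 groups carry forced Myc expression. TFEB cells had received a retrovirus with puromycin resistance and TFEB, a lysosome and autophagy gene regulator, in a form with a serine changed to alanine and fused to ERT2, a mutated estrogen receptor domain. Vector cells had received the empty puromycin virus. The groups were TFEB cells in 4-hydroxytamoxifen (4-OHT, the ligand of ERT2), TFEB cells in vehicle, vector cells in 4-OHT and vector cells in vehicle, with 3 libraries each, all after 4 days and all in medium with interleukin-7 at 10 ng/mL. Both lines had been selected in puromycin at 1 µg/mL. The 4-OHT dose is uncertain, since the sample labels state 250 nM and the design text states 250 in ng/mL. The labels name neither clones nor separate cultures, so p-values reflect only how these libraries spread, which may be technical variation.

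Values are normalized read counts made by the authors, from 11849029 to 22109283 reads per library. Tfeb, the gene carried by the virus, had 702, 581 and 711 normalized counts in TFEB cells in 4-OHT and 1597, 1955 and 1476 in TFEB cells in vehicle. It had 231, 195 and 238 in vector cells in 4-OHT and 252, 255 and 223 in vector cells in vehicle, so every TFEB library lay above every vector library. Reads of a transgene and of the cell's own gene cannot be told apart in these counts, for Tfeb or for Myc. All 10 B cell precursor markers averaged over 100 normalized counts, and their sum was 68728 to 71254 in TFEB cells in 4-OHT, against 88173 to 100744 in the other 9 libraries. The markers did not all lie the same way. Vpreb3, Igll1 and Vpreb1, genes of the pre-B cell receptor and its assembly, had 927 to 1036, 3522 to 3582 and 2268 to 2749 in TFEB cells in 4-OHT, against 4863 to 6564, 9625 to 14455 and 6247 to 8634 in the other 9 libraries. The adaptor gene Blnk lay higher, at 6837 to 7357 against 4350.2 to 5934, and Cd24a, the most abundant of the 10, overlapped at 36006 to 36469 against 29647 to 38744. Among the more abundant genes, with means of 200 or more, the first principal component held 65.3% of the variance and separated TFEB cells in 4-OHT from the other 9 libraries. Over all tested genes it held 42.6% and set apart 3 libraries, TFEB in 4-OHT replicate 2, TFEB in vehicle replicate 3 and vector in 4-OHT replicate 2, with scores of -137, -99.1 and -94.4 against -49.3 to 86.3 in the others. Results are therefore also given without these 3. They had the fewest reads, 12251456, 11849029 and 13709440 in that order, against 15136031 or more in the others. Genes with at least 1 read nevertheless numbered 19250, 15817 and 19057, against 11390 to 16563 in the others. Why these libraries stood apart was not tested.

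When 4-OHT was given to TFEB cells, Mxd1 rose 18.6-fold and Mnt 1.56-fold, while Mxi1, also known as Mxd2, fell 2.49-fold and Mlxip 1.38-fold. Mga was 1.16-fold higher and Mxd3 2.74-fold lower, but these calls were lost in 11 and 10 of 24 other settings. The differences of Myc, Max, Mxd4 and Mlx did not pass. In this comparison 6 of 10 members passed the threshold, a limma adjusted p under 0.05 over all tested genes, against 27.5% of the 13111 genes. Of these, 3 were higher, against 13.7% of all genes, and 3 were lower, against 13.9%. The members' median log2 difference was 0.03 and that of all tested genes was 0.04. In 6 of 10 members the 4-OHT libraries did not overlap the vehicle libraries, as for 38% of all genes. Without the 3 libraries that stood apart, 6 members passed out of 10, with Mlx in place of Mga. That fit called 1312 of the 13111 genes higher and 1311 lower.

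In vector cells 4-OHT changed none of the 10 members by limma, against 0.0153% of all genes. There 1 member, Mxd1, had an unadjusted p under 0.05, against 822 of the 13111 genes. edgeR and DESeq2 on the recovered reads also called 0 of 10. Over all genes edgeR called 0, and DESeq2 called 14 higher and 34 lower. The difference between the 4-OHT effects of TFEB and vector cells passed for 4 of 10 members, against 15.8% of all genes. Mxd1 and Mnt were higher, against 7.75% of all genes, and Mxi1 and Mlxip were lower, against 8.01%. Within 4-OHT, TFEB cells differed from vector cells in 6 of 10 members, against 27.1% of all genes. There Mxd1, Mnt and Mlx were higher, against 13.6%, and Myc, Mxi1 and Mlxip were lower, against 13.5%. In vehicle 0 of 10 members differed between TFEB and vector cells by limma, against 5.38% of all genes (2.89% higher and 2.49% lower). There 2 members, Mxd4 and Mxi1, had an unadjusted p under 0.05, against 2319 of the 13111 genes. edgeR and DESeq2 also called 0 members. Over all genes edgeR called 316 higher and 330 lower, and DESeq2 called 682 higher and 532 lower. The libraries of TFEB and vector cells did not overlap in 10 of 10 members in 4-OHT, against 39.1% of all genes, and in 2 of 10 in vehicle, against 21.6%. The comparisons share libraries, so a member called in several of them is not counted as separate support.

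**Figure D1:**
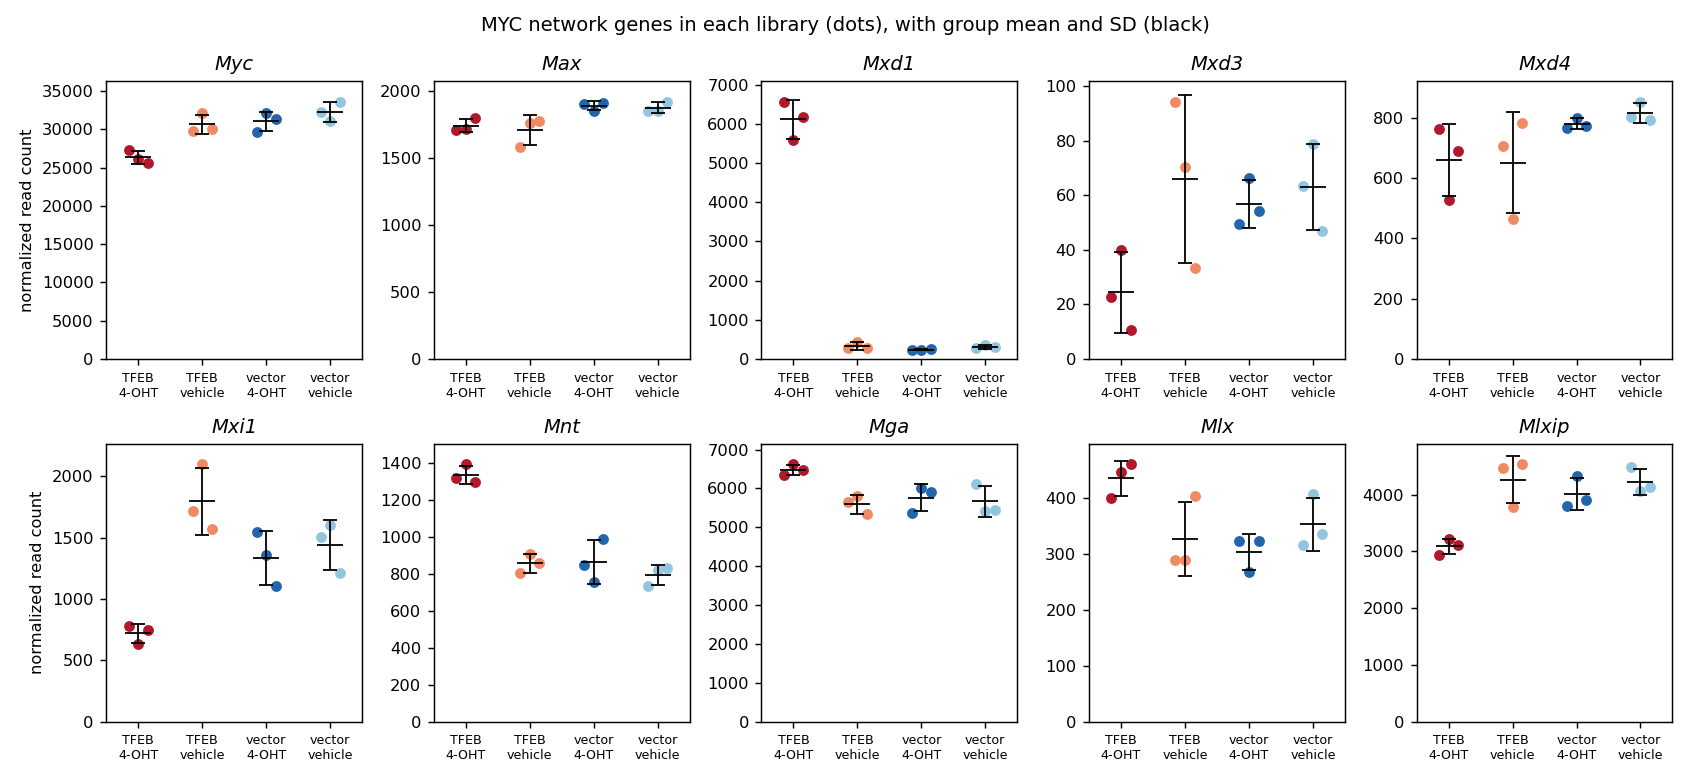
Normalized read counts of the 10 genes (vertical axes, each from 0) in every library, by group, left to right TFEB cells in 4-OHT, TFEB cells in vehicle, vector cells in 4-OHT and vector cells in vehicle. Dots are libraries and black marks are the mean and SD of 3; the Mxd1 dots of TFEB cells in 4-OHT lie at 5597 to 6570, and all other Mxd1 dots lie at 229 to 441.

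Myc (chr15:61985391-61990374, plus strand, GRCm38) encodes the growth factor-responsive activator at the centre of the network. It had 27312, 26176 and 25548 normalized counts in TFEB cells in 4-OHT and 29850, 32093 and 30020 in TFEB cells in vehicle. In vector cells it had 29680, 32175 and 31307 in 4-OHT and 32275, 31060 and 33633 in vehicle. The 3 TFEB libraries in 4-OHT were the lowest of the 12, and the other 3 groups overlapped one another. The log2 difference between 4-OHT and vehicle in TFEB cells was -0.22 ± 0.08 (SE), with a limma adjusted p of 0.052, just above the threshold. It passed under 12 of 24 other settings, among them edgeR, with an adjusted p of 0.00993, and DESeq2, with 0.00295. Leaving out vector 4-OHT replicate 3, vector vehicle replicate 2 or vector vehicle replicate 3 also let it pass (limma adjusted p of 0.0397 to 0.0486), and leaving out the 3 libraries that stood apart did not (0.147). Within 4-OHT, TFEB cells lay below vector cells by a log2 difference of -0.24 ± 0.08 (limma adjusted p = 0.0339), and this call was lost in 7 of 24 settings. They include leaving out any 1 of the 3 TFEB 4-OHT libraries or vector 4-OHT replicate 2 or 3 (limma adjusted p of 0.0569 to 0.145), and the 3 libraries that stood apart (0.185). The difference between the 4-OHT effects, -0.16 with a 95% interval from -0.40 to 0.08, did not pass (limma adjusted p = 0.456).

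Max (chr12:76937269-76962201, minus strand) encodes the partner shared by MYC, the MXD proteins, MNT and MGA. It had 1713, 1722 and 1799 normalized counts in TFEB cells in 4-OHT and 1583, 1766 and 1782 in TFEB cells in vehicle. Its vector counts were 1909, 1852 and 1914 in 4-OHT and 1853, 1852 and 1923 in vehicle. Every TFEB library was below every vector library, but neither comparison of TFEB with vector cells passed. In 4-OHT the log2 difference was -0.12 (limma adjusted p = 0.385) and in vehicle it was -0.14 (limma adjusted p = 0.448). For 4-OHT in TFEB cells the difference was 0.03 with a 95% interval from -0.15 to 0.21, and its sign turned under 4 of 24 settings. The SD of Max was 1.82% to 6.45% of its group means.

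Mxd1 (chr6:86647042-86669161, minus strand) encodes MAD1, a MAX partner known to replace MYC on DNA when cells leave the cycle and differentiate. It had 6570, 5597 and 6178 normalized counts in TFEB cells in 4-OHT and 289, 441 and 274 in TFEB cells in vehicle. Vector cells held 240, 229 and 246 in 4-OHT and 274, 350 and 298 in vehicle. The TFEB libraries in 4-OHT were all at 5597 or more and the other 9 all at 441 or less, and in vector cells the 4-OHT libraries lay under the vehicle libraries. The means were 6115 ± 489 (SD, n = 3) in TFEB cells in 4-OHT and 334 ± 92 in TFEB cells in vehicle. The log2 difference was 4.22 ± 0.15 (SE; limma adjusted p = 1.06e-19), 101st by size and 9th by p among the 13111 genes. The rise was thus far beyond the spread of its libraries. In vector cells the difference between 4-OHT and vehicle was -0.36 ± 0.15, which did not pass (limma adjusted p = 0.712). The 4-OHT effects of the 2 lines differed by 4.58 ± 0.22 (limma adjusted p = 3.04e-16), and TFEB exceeded vector cells by 4.67 within 4-OHT. In vehicle the libraries of TFEB and vector cells overlapped, with a difference of 0.10 and a 95% interval from -0.22 to 0.41. Every setting tried kept the 4-OHT call in TFEB cells, with log2 differences of 4.09 to 4.43.

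Mxd1 is also made by blood cells other than B cells, so the markers of such cells are given beside it. The 8 T cell markers summed to 924 to 1011 normalized counts in TFEB cells given 4-OHT, 417 to 770 in TFEB cells given vehicle, 453 to 590 in vector cells given 4-OHT and 533 to 596 in vector cells in vehicle. Lck was the most abundant of the 8, with 464 to 571 in TFEB cells in 4-OHT and 377 to 730 in the other 9 libraries. Cd28, a T cell costimulatory receptor, had 434, 392 and 378 in TFEB cells in 4-OHT and at most 16.6 in any other library. The defining genes Cd3e, Cd3d, Cd3g, Cd4 and Cd8a were at or near 0, with at most 24.5 in any library. The 8 macrophage markers summed to 268 to 432 in TFEB cells given 4-OHT, 254 to 291 in TFEB cells given vehicle, 204 to 243 in vector cells given 4-OHT and 159 to 192 in vector cells in vehicle. Of these the lysosomal gene Cd68 averaged over 100 across the 12 libraries, with 195 to 247 in TFEB cells in 4-OHT and 40.1 to 104 in the other 9. Mrc1, a mannose receptor gene, lay the other way, with 23.3 to 42.6 in TFEB cells in 4-OHT and 95.9 to 165 in the other 9, and Lyz2 stayed at 6.00 or less in every library. The sums over 5 granulocyte markers, of which 4 were found, were at most 30.4. Those over 5 erythroid markers were at most 54.2 and those over 6 stromal markers at most 261, both in TFEB 4-OHT replicate 2. The stromal sums varied within groups, from 11.8 to 261 in TFEB cells in 4-OHT and from 16.9 to 190 in vector cells in 4-OHT. The 190 was vector 4-OHT replicate 2, and both of these libraries were among those that stood apart. Whether such cells had a part in the rise of Mxd1 was not tested. In bulk RNA, fewer cells of a type and less RNA per cell cannot be told apart.

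The promoter of Mxd1 is shown because this gene had the largest change of the 10. The 250 bases before its RefSeq start (GRCm38.p6, chr6:86669160-86669409, minus strand) are printed with the letters CCAAT in capitals, the letters bound by the factor NF-Y.
Mxd1: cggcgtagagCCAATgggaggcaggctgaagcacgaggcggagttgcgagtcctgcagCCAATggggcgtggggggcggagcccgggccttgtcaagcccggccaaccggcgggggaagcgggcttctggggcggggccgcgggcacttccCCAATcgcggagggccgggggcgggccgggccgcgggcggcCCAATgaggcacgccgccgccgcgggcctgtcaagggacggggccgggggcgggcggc
This stretch is 78.4% G and C, against a median of 52.4% over 32817 promoters of the same length. It holds CCAAT 4 times, counted on both strands. At least 1 CCAAT stood in 33.8% of all these promoters, and 0.835% held as many. The letters CCAAT were chosen after this sequence was seen. The E-box CACGTG is not among these letters, which says only that it is not in this window.

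Mxi1 (chr19:53310518-53375810, plus strand) encodes another MAX partner of the MXD family. It had 777, 630 and 750 normalized counts in TFEB cells in 4-OHT and 1719, 2097 and 1569 in TFEB cells in vehicle. The vector libraries gave 1543, 1357 and 1106 in 4-OHT and 1509, 1603 and 1215 in vehicle. The TFEB libraries in 4-OHT were the 3 lowest. Vector cells in vehicle overlapped both TFEB cells in vehicle and vector cells in 4-OHT. Every TFEB library in vehicle lay above every vector library in 4-OHT, at 1569 or more against 1543 or less. With 4-OHT in TFEB cells the direction of Mxi1 was the opposite of that of Mxd1. The log2 difference between 4-OHT and vehicle was -1.31 ± 0.13 (SE; limma adjusted p = 1.15e-09) in TFEB cells, and -0.11 in vector cells, which did not pass. The effects of the 2 lines differed by -1.20 ± 0.18 (limma adjusted p = 9.16e-06). Within 4-OHT, TFEB cells lay below vector cells by a log2 difference of -0.88, while in vehicle the difference was 0.31 and did not pass (limma adjusted p = 0.173). All settings tried kept the first of these calls, at -1.41 to -1.20.

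Mxd3 and Mxd4 were the remaining MXD genes. Mxd3 (chr13:55325168-55329823, minus strand), an MXD gene known for expression in cycling cells, had 22.6, 40.01 and 10.7 normalized counts in TFEB cells in 4-OHT and 94.3, 70.4 and 33.2 in TFEB cells in vehicle. In vector cells it had 49.4, 66.4 and 54.1 in 4-OHT and 63.4, 78.7 and 47.0 in vehicle. The TFEB groups overlapped, and the values rest on 11 to 110 reads per library. The log2 difference between 4-OHT and vehicle in TFEB cells was -1.45 ± 0.54 (SE), on the log2(value + 1) scale, with a limma adjusted p of 0.0431. The call was lost in 10 of 24 settings, with an adjusted p of 0.118 when only these 6 libraries were fitted, 0.0568 by edgeR and 0.238 without TFEB 4-OHT replicate 3. Leaving out TFEB 4-OHT replicate 1, TFEB vehicle replicate 1 or 2, or vector vehicle replicate 1 or 2 also ended it (limma adjusted p of 0.056 to 0.199). Within 4-OHT, TFEB cells lay below vector cells by -1.35, which did not pass (limma adjusted p = 0.0631) but did without TFEB 4-OHT replicate 2 (0.0236) or TFEB vehicle replicate 3 (0.0438). A stretch of 105 bases, 4.43% of its exons, overlaps the far more abundant gene Prelid1 on the other strand. The strand setting of the counting is not given, so reads of the 2 genes there cannot be told apart. Mxd4 (chr5:34173883-34187720, minus strand) had 763, 528 and 689 in TFEB cells in 4-OHT and 704, 464 and 784 in TFEB cells in vehicle. Its vector counts were 765, 800 and 773 in 4-OHT and 802, 853 and 792 in vehicle. Its groups overlapped within TFEB cells, with a log2 difference of 0.04 and a 95% interval from -0.28 to 0.35, and the sign turned in 5 of 24 settings. TFEB libraries in vehicle lay below vector libraries in vehicle by a log2 difference of -0.36, which did not pass (limma adjusted p = 0.199).

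**Figure D2:**
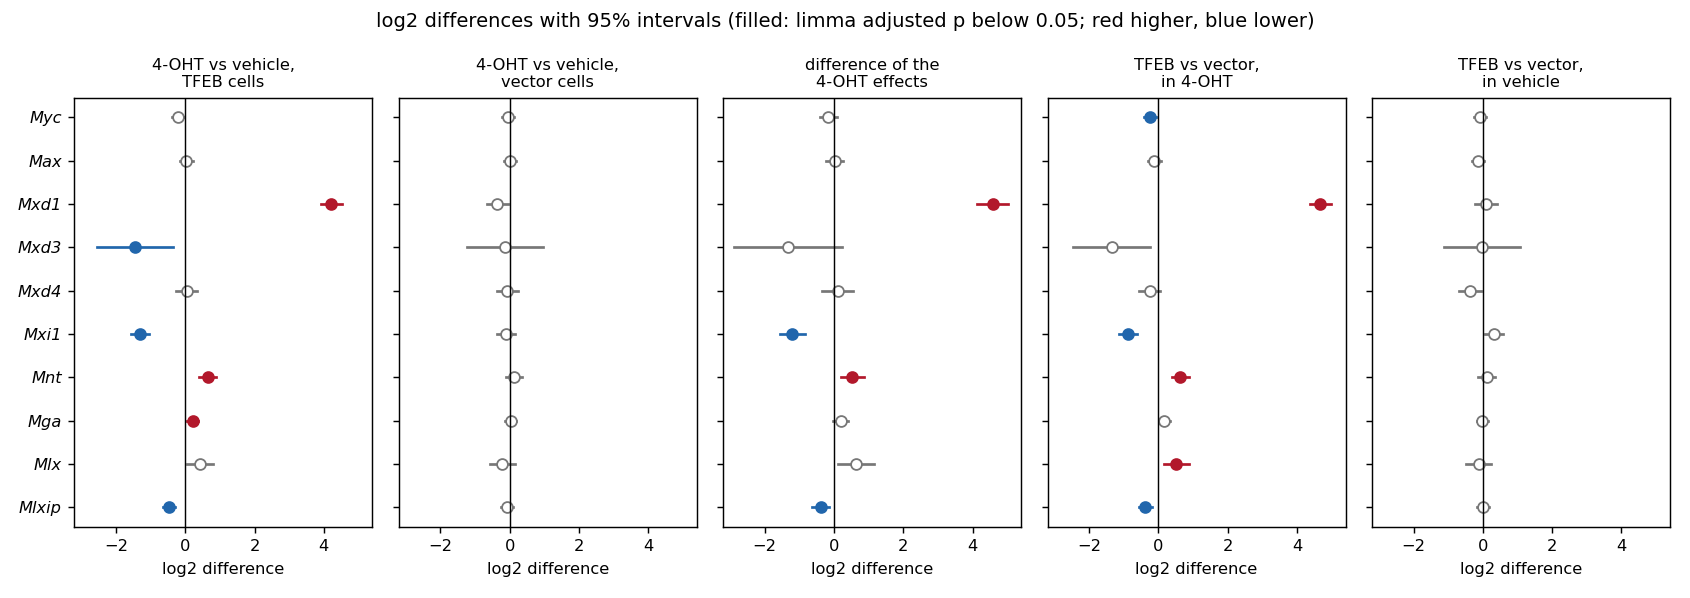
Log2 differences (horizontal axes) of the 10 genes in the 5 comparisons, with 95% intervals from limma; filled points have an adjusted p below 0.05, red for higher and blue for lower. Mxd1 lies at 4.22, 4.58 and 4.67 in the 3 comparisons that involve TFEB cells in 4-OHT, and no point is filled for vector cells or for vehicle.

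Levels of different genes were compared as normalized counts per kb of exon, a level scaled by gene length. Myc was the highest of the 10 in every group, with 9696 ± 329 per kb (SD, n = 3) in TFEB cells given 4-OHT, 11282 ± 460 in TFEB cells given vehicle, 11430 ± 466 in vector cells given 4-OHT and 11897 ± 474 in vector cells in vehicle. Mxd1 was the 2nd highest in TFEB cells in 4-OHT, at 865 ± 69 per kb, and the 9th in the other groups, at 47.3 ± 13.1, 33.7 ± 1.2 and 43.4 ± 5.5 in the same order. Mxi1 was the 8th in TFEB cells in 4-OHT, at 105 ± 11 per kb, and the 5th elsewhere, at 263 ± 40, 196 ± 32 and 211 ± 30. Max stayed 2nd or 3rd, and Mxd3 was the lowest of the 10 in all 4 groups. Transcripts of differing length from 1 gene are not resolved by this scaling.

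The makeup of the MXD group changed with these genes. Mxd1 made up 81.3%, 82.2% and 81.7% of the summed level per kb of Mxd1, Mxi1, Mxd3 and Mxd4 in TFEB cells in 4-OHT. Its mean share was 11.3 ± 2.1% (SD, n = 3) in TFEB cells given vehicle, 9.84 ± 1.17% in vector cells given 4-OHT and 11.5 ± 1.3% in vector cells in vehicle. Mxi1 was the main MXD transcript in those 9 libraries, with group means of 63.2 ± 3.9%, 56.4 ± 4.4% and 55.9 ± 2.3%, and in TFEB cells in 4-OHT it was 9.95 ± 0.35%. The sum itself was also higher with Mxd1. The summed level of the 4 genes was 1058 ± 90 per kb in TFEB cells given 4-OHT, 415 ± 40 in TFEB cells given vehicle, 345 ± 31 in vector cells given 4-OHT and 378 ± 43 in vector cells in vehicle. The lowest sum in TFEB cells given 4-OHT, 963, exceeded the highest elsewhere, 454. Relative to the Myc level, the MXD sum was 10.9 ± 0.8% in TFEB cells in 4-OHT and 3.67 ± 0.24% in TFEB cells in vehicle, then 3.03 ± 0.35% and 3.19 ± 0.48% in vector cells in 4-OHT and in vehicle. Even there the Myc level stayed above the sum of the 4 MXD levels. The ratio of Mxd1 to Max, which is needed by both MYC and MXD1, was 1.78 ± 0.15 in TFEB cells given 4-OHT, 0.099 ± 0.025 in TFEB cells given vehicle, 0.064 ± 0.001 in vector cells given 4-OHT and 0.083 ± 0.011 in vector cells in vehicle. These are RNA levels, and protein was not measured.

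**Figure D3:**
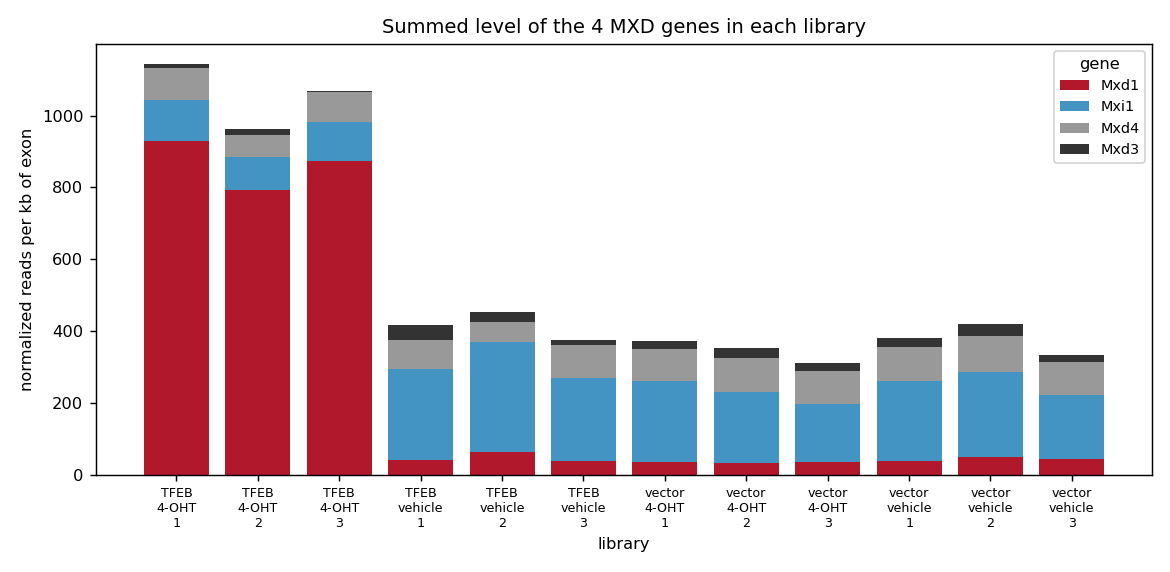
Summed level of the 4 MXD genes (vertical axis, normalized read counts per kb of exon) in each of the 12 libraries, stacked by gene. The 3 libraries of TFEB cells in 4-OHT reach 963 to 1142, mostly Mxd1, and the other 9 reach 311 to 454, mostly Mxi1.

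**Figure D4:**
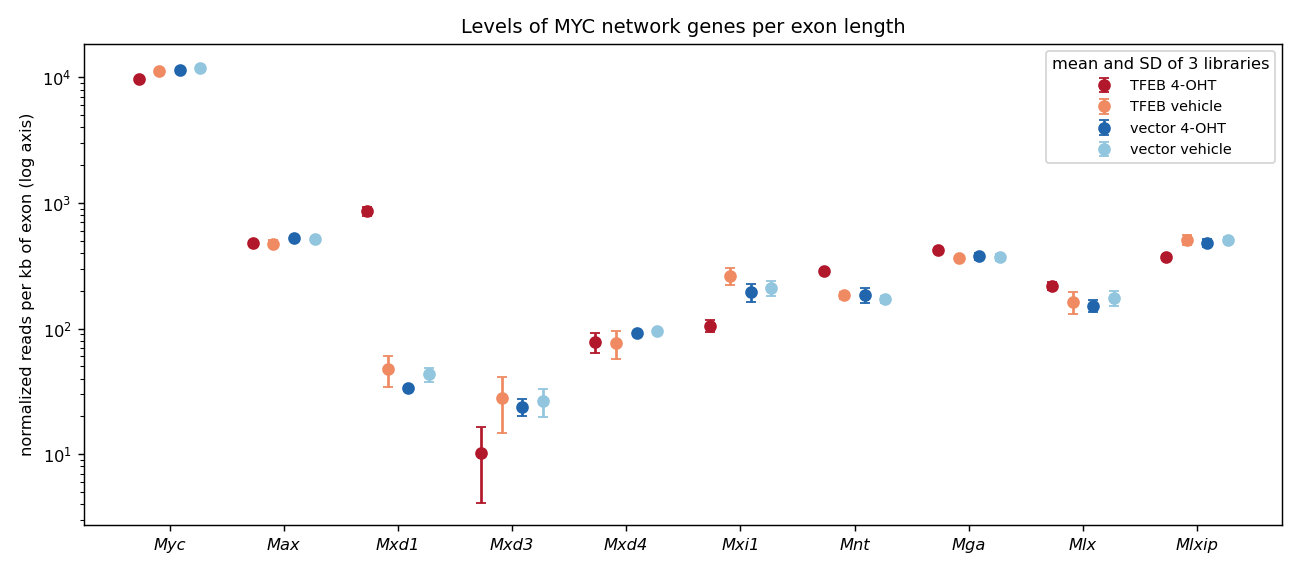
Level of each of the 10 genes per kb of exon (vertical log axis) by group; points are means and bars SDs of 3 libraries. Myc lies at 9696 to 11897 in the 4 groups, and Mxd1 lies at 865 in TFEB cells in 4-OHT against 33.7 to 47.3 in the other groups.

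Mnt and Mga encode large MAX partners. MNT (gene at chr11:74830920-74845725, plus strand) is known as the broadly expressed antagonist that supports survival of cells with high MYC. Mnt had 1318, 1391 and 1298 normalized counts in TFEB cells in 4-OHT and 803, 909 and 856 in TFEB cells in vehicle. Vector cells held 846, 757 and 990 in 4-OHT and 732, 822 and 829 in vehicle. The TFEB libraries in 4-OHT were the 3 highest and the other groups overlapped. The log2 difference between 4-OHT and vehicle in TFEB cells was 0.64 ± 0.11 (SE; limma adjusted p = 4.94e-05), and every setting tried kept this call. In vector cells it was 0.12, which did not pass. The difference between the 2 lines' effects, 0.53 ± 0.16, passed (limma adjusted p = 0.0224), but 7 of 23 settings lost it. Among them were leaving out TFEB 4-OHT replicate 2, TFEB vehicle replicate 1, vector 4-OHT replicate 2 or vector vehicle replicate 2 or 3 (limma adjusted p of 0.0558 to 0.0789). Without the 3 libraries that stood apart it was 0.41, with an adjusted p of 0.158.

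Mga (chr2:119897228-119969581, plus strand) had 6345, 6622 and 6465 normalized counts in TFEB cells in 4-OHT and 5648, 5803 and 5333 in TFEB cells in vehicle. The vector libraries gave 5361, 6004 and 5920 in 4-OHT and 6125, 5432 and 5440 in vehicle. The TFEB libraries in 4-OHT were the 3 highest of the 12, by a narrow margin. The log2 difference between 4-OHT and vehicle in TFEB cells was 0.21 ± 0.08 (SE; limma adjusted p = 0.0441). This call was lost in 11 of 24 settings, among them edgeR (adjusted p = 0.143), upper-quartile rescaling (limma adjusted p = 0.101) and the fit without the 3 libraries that stood apart (limma adjusted p = 0.240). Leaving out any 1 of the TFEB 4-OHT libraries, or TFEB vehicle replicate 1 or 3, also ended it (limma adjusted p of 0.0718 to 0.140). Between the lines, the 4-OHT effects differed by 0.19, which did not pass (limma adjusted p = 0.315).

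Mlx and Mlxip form the other branch. Mlx (chr11:101087277-101092207, plus strand), the partner of MLXIP, had 399, 445 and 460 normalized counts in TFEB cells in 4-OHT and 290, 288 and 404 in TFEB cells in vehicle. In vector cells it had 322, 267 and 323 in 4-OHT and 316, 407 and 335 in vehicle. The TFEB groups overlapped by 1 library, and the log2 difference of 0.43 ± 0.18 (SE) did not pass (limma adjusted p = 0.080). It passed without TFEB vehicle replicate 3, at 0.59 (limma adjusted p = 0.0194), and without the 3 libraries that stood apart, at 0.57 (limma adjusted p = 0.0451). Within 4-OHT, Mlx was higher in TFEB than in vector cells by 0.52 ± 0.18 (limma adjusted p = 0.0299), a call lost in 4 of 24 settings. These were leaving out TFEB 4-OHT replicate 2 or 3 or vector 4-OHT replicate 2 (limma adjusted p of 0.0859 to 0.121), and the 3 libraries together (0.130). The lines' 4-OHT effects differed by 0.64, which did not pass (limma adjusted p = 0.0918) but did without TFEB vehicle replicate 3 (0.0272). Exons of Psmc3ip on the other strand cover 385 bases, 19.3% of the Mlx exons, so part of the reads of the 2 genes cannot be told apart. Genes on the opposite strand also cover 6.06% of the exons of Mxd4, 3.21% of those of Mlxip and 2.84% of those of Mxi1.

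Mlxip (chr5:123394798-123457932, plus strand) encodes MondoA, which with MLX activates Txnip when glucose phosphates rise. It had 2943, 3214 and 3111 normalized counts in TFEB cells in 4-OHT and 4463, 3787 and 4534 in TFEB cells in vehicle. Its vector counts were 3802, 4324 and 3905 in 4-OHT and 4491, 4063 and 4136 in vehicle. The TFEB libraries in 4-OHT were the 3 lowest, and the other groups overlapped. The log2 difference between 4-OHT and vehicle in TFEB cells was -0.46 ± 0.09 (SE; limma adjusted p = 8.99e-05), kept in all settings. Within 4-OHT, TFEB cells lay below vector cells by -0.37 ± 0.09 (limma adjusted p = 0.001). The difference between the lines' effects was -0.38, with an SE of 0.12 and a limma adjusted p of 0.0273, but 10 of 23 settings lost it. They include leaving out TFEB 4-OHT replicate 1 or 3, TFEB vehicle replicate 1 or 3, vector 4-OHT replicate 2 or vector vehicle replicate 2 or 3 (limma adjusted p of 0.0539 to 0.0893), and the 3 libraries together (0.179).

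Promoters were searched because TFEB, MYC, MAX and MLX proteins are all known to bind CACGTG. RefSeq promoters (GRCm38.p6, 250 bases before to 50 after each start) were at hand for 9 of the 10 genes, in 11 windows, and the search covered both strands. No promoter of Myc was at hand, so Myc was not searched. CACGTG stood in 4 of the 11 windows, each of another gene, against 7.15% of 32817 windows. The 30 bases around each match are printed 5′ to 3′ on the strand of the gene, with the E-box in capitals.
Max: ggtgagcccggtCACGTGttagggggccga
Mlx: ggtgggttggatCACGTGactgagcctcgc
Mnt: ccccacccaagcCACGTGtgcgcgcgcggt
Mxd4: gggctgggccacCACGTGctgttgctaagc
They lie at chr12:76962234-76962263, chr11:101087238-101087267, chr11:74830789-74830818 and chr5:34187912-34187941. Their E-boxes begin 3, 40, 123 and 219 bases before the start, in the order printed. Of these 4 genes, Mnt passed the test for 4-OHT in TFEB cells, and Max, Mlx and Mxd4 did not. The longer form TCACGTGA, which contains the E-box, was found for Mlx alone among the members searched and in 0.9751% of windows. These 8 letters are also the core of the CLEAR element known from TFEB target genes. The variant CATGTG was found for Mxi1 alone among the members searched and in 14.2% of windows. A match describes letters only, and no match says only that these letters are not in this window.

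Other genes tied to the network were counted in lists of known function. Among 35 genes known to be induced by MYC, 4 were higher and 13 lower with 4-OHT in TFEB cells, and 18 did not pass, against 13.7% of all tested genes higher and 13.9% lower. Their median log2 difference was -0.14, against 0.04 over all tested genes. Bcat1, a branched-chain amino acid transaminase, averaged 529 ± 23 normalized counts (SD, n = 3) in TFEB cells in 4-OHT and 2163 ± 435 in TFEB cells in vehicle, a log2 difference of -2.01 ± 0.12 (SE; limma adjusted p = 1.29e-14). E2f2, a cell cycle activator, averaged 858 ± 59 in TFEB cells in 4-OHT and 2727 ± 161 in TFEB cells in vehicle, a log2 difference of -1.67. The transferrin receptor gene Tfrc fell by 0.93 on the log2 scale, and Ldha, which makes lactate dehydrogenase, fell by 0.85. In the comparison of TFEB with vector cells within 4-OHT, 1 gene of the list was higher, 19 were lower and 15 did not pass, against 13.6% and 13.5% of all genes higher and lower. In vehicle 0 were higher and 3 lower, against 2.89% and 2.49%. The difference between the lines' effects passed for 12 of the 35, all negative, against 15.8% of all genes in either direction and 8.01% lower, and in vector cells 4-OHT changed 0 of 35 by limma. All 4 named genes kept their calls in every setting. Without the 3 libraries that stood apart, 10 of the 35 passed for 4-OHT in TFEB cells, against 17 with all libraries. Calls over all 13111 genes fell too, from 3611 to 2623.

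Among 10 genes known to be repressed by MYC, 7 were tested, and 1 was higher and 1 lower, a share near the 27.5% of all genes. Gadd45b, a stress response gene, averaged 274 ± 71 normalized counts (SD, n = 3) in TFEB cells in 4-OHT and 104 ± 31 in TFEB cells in vehicle, a log2 difference of 1.40 (limma adjusted p = 7.26e-04). Cdkn1b, a cyclin-dependent kinase inhibitor that MYC is known to hold down, differed in the opposite direction. It averaged 593 ± 172 in TFEB cells in 4-OHT and 1393 ± 178 in TFEB cells in vehicle, a log2 difference of -1.26 (limma adjusted p = 6.53e-06).

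Of 9 genes known as targets of MLXIP or its relative ChREBP, 7 were tested, and 2 were higher and 1 lower, against 13.7% and 13.9% of all genes. Txnip, the best known MondoA target, averaged 1811 ± 310 normalized counts (SD, n = 3) in TFEB cells in 4-OHT and 4220 ± 866 in TFEB cells in vehicle, a log2 difference of -1.21 ± 0.14 (SE; limma adjusted p = 1.78e-08). Fasn and Khk, genes of fatty acid synthesis and fructose use, were higher by 0.55 and 0.79, with limma adjusted p of 3.50e-05 and 0.0465. The call of Khk was lost in 11 of 24 settings, among them leaving out any 1 of the TFEB 4-OHT libraries, TFEB vehicle replicate 1 or 2 or vector vehicle replicate 2 (limma adjusted p of 0.0535 to 0.246). The other 4 tested genes did not pass.

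Of 18 corepressor genes of the MXD and MNT proteins, all tested, 1 was higher and 4 were lower, with a median of -0.04. These 5 of 18 are about the share called over all genes, 27.5%. Sap30, a subunit of the SIN3 complex, averaged 382 ± 11 normalized counts (SD, n = 3) in TFEB cells in 4-OHT and 708 ± 59 in TFEB cells in vehicle, a log2 difference of -0.89 (limma adjusted p = 9.60e-05). Ing2 and Rbbp4, also of SIN3 complexes, fell by 0.70 and 0.27, and Brms1 rose by 0.52. The number past the threshold ranged from 2 to 9 over the settings. It was 2 without the 3 libraries that stood apart and 3 without any 1 of the TFEB 4-OHT libraries or TFEB vehicle replicate 2. Over all 13111 genes, 3611 passed with all libraries and 2623 to 4429 over the settings. Of these settings, leaving out the 3 libraries gave 2623 and leaving out 1 library gave 2975 to 3734. Sap30 kept its call in all settings. Rbbp4 lost it without TFEB 4-OHT replicate 2 or 3 or TFEB vehicle replicate 1 or 2 (limma adjusted p of 0.0806 to 0.170), and Brms1 without TFEB 4-OHT replicate 1 or 3, TFEB vehicle replicate 2 or 3 or vector vehicle replicate 1 (0.0503 to 0.189). Ing2 lost it without the 3 libraries together (0.178).

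Of 21 MYC cofactor genes 5 were higher and 3 lower, against 13.7% and 13.9% of all genes, with a median of 0.06. Ep400, the motor of the TIP60 chromatin complex, rose by 0.50 and Kat5, its acetyltransferase, by 0.59, while Paf1, an elongation factor gene, rose by 0.39. Bin1, which encodes a MYC-binding adaptor, averaged 435 ± 42 normalized counts (SD, n = 3) in TFEB cells in 4-OHT and 827 ± 49 in TFEB cells in vehicle, a log2 difference of -0.93 (limma adjusted p = 6.32e-07). Of 20 genes for MYC protein turnover 19 were tested, and 2 were higher and 3 lower, with a median of -0.01. Again these 5 of 19 are about the share over all genes, 27.5%. Fbxo28, which encodes a ubiquitin ligase subunit that acts on MYC, averaged 552 ± 15 in TFEB cells in 4-OHT and 212 ± 25 in TFEB cells in vehicle, a log2 difference of 1.38 (limma adjusted p = 4.68e-07). The ligase gene Stub1 rose by 0.44, and the deubiquitinase gene Usp28 and the kinase gene Aurka fell by 0.52 and 0.47. Fbxw7, a further ligase gene past the threshold, lay the other way from Fbxo28 and Stub1. It averaged 1558 ± 130 in TFEB cells in 4-OHT and 2098 ± 152 in TFEB cells in vehicle, a log2 difference of -0.43 (limma adjusted p = 5.11e-04). Fbxw7 was not followed singly over the other settings. Ep400, Bin1, Fbxo28 and Stub1 kept their calls in all settings. Without TFEB 4-OHT replicate 1 the number of cofactor genes that passed was 5, against 8 with all libraries. Over all genes that fit called 1447 higher and 1578 lower, against 1792 and 1819 with all libraries. Kat5 lost its call without TFEB vehicle replicate 3 (limma adjusted p = 0.0534), and Paf1 without TFEB 4-OHT replicate 1 (0.0615) or TFEB vehicle replicate 2 (0.0616). Aurka lost it without TFEB 4-OHT replicate 1 (0.0534) or TFEB vehicle replicate 1 (0.0587), and Usp28 without TFEB 4-OHT replicate 2 or TFEB vehicle replicate 2 or 3 (0.0541 to 0.0704).

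Of 13 genes of the Polycomb complex PRC1.6, in which MGA sits, 12 were tested, and 2 were higher and 3 lower, against 13.7% and 13.9% of all genes, with a median of 0.11. L3mbtl2 and Rnf2, a histone reader and a ubiquitin ligase of the complex, rose by 0.47 and 0.32. Cbx3, a heterochromatin protein gene, and Wdr5, which is also on the cofactor list, fell by 0.49 and 0.31. The count ranged from 1 to 6 over the settings. It was 1 without the 3 libraries that stood apart or without TFEB 4-OHT replicate 2, 2 without TFEB 4-OHT replicate 1 and 3 without any 1 of the TFEB vehicle libraries. Over all 13111 genes, 3611 passed with all libraries, 2623 without the 3 libraries and 2975 to 3734 leaving out 1 library. Cbx3 kept its call in all settings. L3mbtl2 lost it without TFEB 4-OHT replicate 2 (limma adjusted p = 0.102) or TFEB vehicle replicate 2 (0.206). Rnf2 and Wdr5 lost theirs in 11 and 8 of 24 settings. For Rnf2 these include leaving out TFEB 4-OHT replicate 1 or 2 or TFEB vehicle replicate 1 or 3 (0.056 to 0.294), and for Wdr5 any 1 of the TFEB 4-OHT libraries or TFEB vehicle replicate 1 or 2 (0.0551 to 0.124). Of 13 germline genes that this complex is known to silence in other cells, 6 were tested, and the others did not reach the filter on low values. Zcwpw1 was the only one of the 6 that passed and was lower, with 2582 ± 242 normalized counts (SD, n = 3) in TFEB cells in 4-OHT and 3447 ± 157 in TFEB cells in vehicle. Vector cells held 3412 ± 198 in 4-OHT and 2951 ± 310 in vehicle, so this gene was not silent in any group. The other family genes Mycn, Mycl (listed as Mycl1), Mycs and Mlxipl had group means of at most 16.6 normalized counts. Of these 4 only Mycl was tested, and it did not pass.

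**Figure D5:**
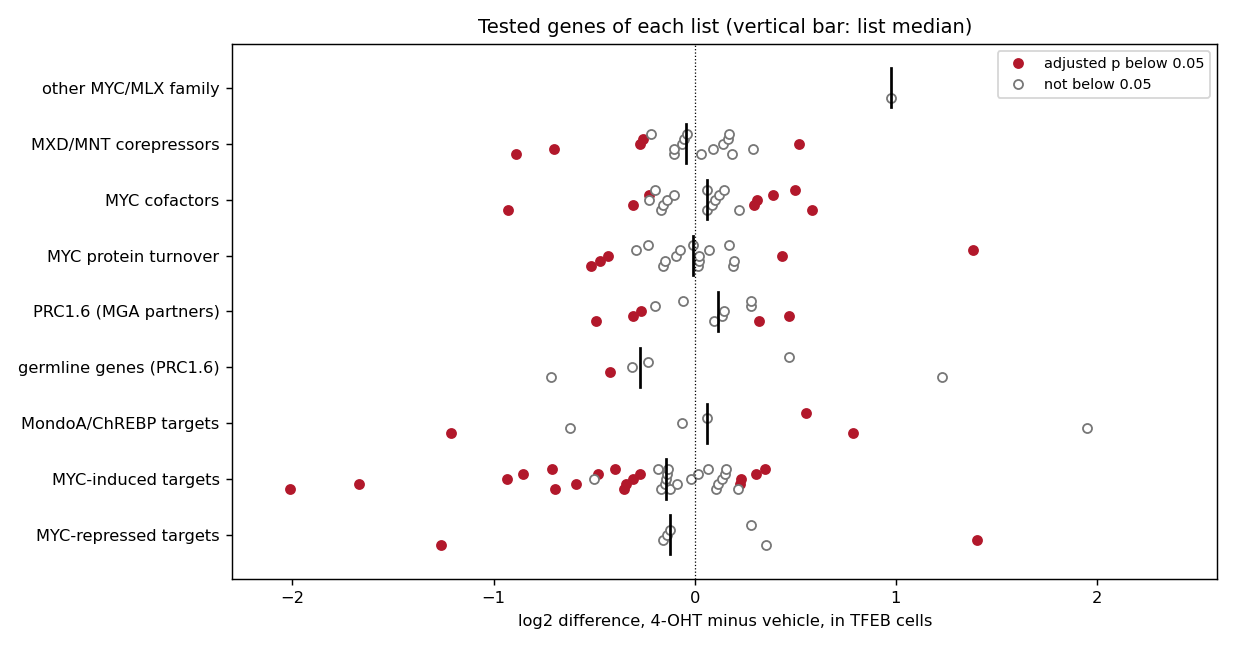
Log2 difference between 4-OHT and vehicle in TFEB cells (horizontal axis) for the tested genes of each list; each point is a gene, red where the limma adjusted p is below 0.05, and the vertical bar is the list median. The median of the 35 MYC-induced genes lies at -0.14, and Bcat1 is the lowest point of the plot at -2.01.

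The genes whose values ran most like those of a member were found by Pearson's r of log2 values over the 12 libraries, among genes with a mean of at least 200. For Mxd1 they included Myzap and Lgmn, each with r = 0.996. For Mxi1 they were Ets1 (r = 0.9748), Sipa1l1 (r = 0.972) and Arrdc3 (r = 0.971). For Mnt they were Evi5 (r = 0.980), Xxylt1 (r = 0.979) and Socs6 (r = 0.974), and for Mlxip they were Rin3 (r = 0.960), Zdhhc14 (r = 0.957) and Apobec3 (r = 0.955). Lgmn encodes a lysosomal enzyme, and Apobec3 encodes an antiviral deaminase. The closest to Myc were Slc25a33 (r = 0.960), N4bp2 (r = 0.959) and Bcl7a (r = 0.954). For Mga the closest was Pafah1b2 (r = 0.918) and for Mxd3 it was Zer1 (r = 0.922). These values describe 12 libraries that fall mainly into TFEB cells in 4-OHT and the rest.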

How the data were processed

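Per the labels' protocols, total RNA of 12 libraries was prepared with the Ovation mouse RNA-seq kit of NuGEN. The submitters' processing notes name the build mm10 and the tools STAR 2.5.3, DESeq2 1.6.3 and HTSeq 0.6.1. Which tool did what, which annotation was used and how strand was handled was not stated. The authors deposited a signal, normalized read counts, which equal a gene's reads divided by 1 size factor per library. Dividing by the value of 1 read gave whole numbers, within 0.001, for 100% of the values above 0. Whole reads were thus recovered, 11849029 to 22109283 per library, and a gene at 0 could have had up to 3 reads, or 2.21 to 4.15 normalized counts, by counting error only.

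The log2 of value + 1, for 13111 genes with at least 10 in at least 3 libraries, was fitted with limma 3.58.1 in R 4.3.3 over all 12 libraries, with 1 mean per group, a variance trend and Benjamini-Hochberg adjusted p-values. The threshold was 0.05. Fold changes of low genes are understated on this scale. edgeR 4.0.16 and DESeq2 1.42.0 on the recovered reads, other filters, pseudocounts and scalings, a replicate block and leaving out each library were the alternatives. The members and lists were chosen with earlier results of these data known. From each list the text names up to 4 genes with the largest change past the threshold and a mean of at least 100, and all genes of a list of 5 or fewer. Fbxw7 is named besides these, since it lay the other way from the named ligase genes Fbxo28 and Stub1. Of the genes closest to Mxd1 in pattern, 1 is not reported here. Positions and exon lengths come from GENCODE (GRCm38) and promoters from RefSeq. Same-numbered replicates did not deviate together: their correlations were -0.12 to 0.17, and 1 of 18 pairs exceeded 0.1.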

Additional observations from a re-analysis of the deposited data

Results flagged for a closer look

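4 of the 10 genes responded to 4-OHT by amounts that differed between TFEB and vector cells, by a limma test of the difference itself, against 15.8% of all tested genes. Mxd1 differed by 4.58 on the log2 scale (limma adjusted p = 3.04e-16), with all 3 TFEB libraries in 4-OHT above all 9 others. Mxi1 differed by -1.20 (limma adjusted p = 9.16e-06), with the 3 TFEB libraries in 4-OHT below all others. Mnt differed by 0.53 (limma adjusted p = 0.0224; 0.00426 to 0.158 over the alternatives) and Mlxip by -0.38 (limma adjusted p = 0.0273; 0.00504 to 0.179 over the alternatives).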

How the results depend on the processing

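The number of genes that vector cells changed in 4-OHT, 2, was 0 with a minimum of 50, with only the groups compared, without a variance trend and by edgeR, 42 with array weights and 48 by DESeq2. Leaving out 1 library gave 0 to 55, with 55 without vector 4-OHT replicate 2, 25 without vector vehicle replicate 1, and 0 without TFEB 4-OHT replicate 3, TFEB vehicle replicate 1, vector 4-OHT replicate 1 or 3, or vector vehicle replicate 2 or 3. For TFEB against vector cells in vehicle, 705 genes passed, against 352 with only the groups compared, 259 without a variance trend, 1125 with array weights, 1214 by DESeq2, 297 without the 3 libraries that stood apart (chosen after seeing the data) and 433 to 824 leaving out 1 library, with 466 without TFEB vehicle replicate 2, 439 without vector vehicle replicate 2 and 433 without vector vehicle replicate 3. For the difference of the 4-OHT effects, 2066 genes and 4 members passed. Without the 3 libraries 1324 genes and 2 members did. Without a variance trend 2 members did, with 707 genes higher and 681 lower. With array weights 6 members did, with 1242 genes higher and 1344 lower. Leaving out 1 library gave 1773 to 2108 genes and 2 to 4 members. It gave 2 members without TFEB vehicle replicate 1, vector 4-OHT replicate 2 or vector vehicle replicate 2 or 3. No fit to only the groups compared exists for it. The counts of members in the other comparisons were 4 to 8 for 4-OHT in TFEB cells, 4 to 8 for TFEB against vector cells in 4-OHT, and 0 in the other 2. Counts over all genes were 2623 to 4429 for 4-OHT in TFEB cells and 2738 to 4185 for TFEB against vector cells in 4-OHT.

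The replicate numbers did not pair the libraries. With a replicate block, 3601, 2, 2094, 3548 and 723 genes passed for 4-OHT in TFEB cells, in vector cells, their difference, and TFEB against vector cells in 4-OHT and in vehicle, with 6, 0, 4, 6 and 0 members.

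Signs turned only for member differences past the threshold in neither fit. For 4-OHT in TFEB cells, Max gave -0.0013 with upper-quartile rescaling, -0.0038 with TMM rescaling, -0.0041 by edgeR and -0.024 to 0.061 leaving out 1 library. Mxd4 gave -0.0056 with array weights, -0.0032 by edgeR and -0.19 to 0.19 leaving out 1 library. For vector cells, Max gave -0.015 with TMM and -0.015 by edgeR. Mga gave -0.0024 with TMM, -0.0041 by edgeR, -0.0059 without the 3 libraries and -0.0059 to 0.082 leaving out 1 library. Leaving out 1 library gave -0.32 to 0.041 for Mxd3 and -0.23 to 0.015 for Mxi1. For the difference of effects, Max gave -0.026 with upper-quartile rescaling and -0.036 to 0.049 leaving out 1 library, and Mxd4 -0.12 to 0.26. For TFEB against vector cells in vehicle, Mxd1 gave -0.027 with array weights and -0.12 to 0.22 leaving out 1 library. Mxd3 gave 0.21 with array weights, 0.049 by edgeR, 0.074 by DESeq2, 0.40 without the 3 libraries and -0.34 to 0.40 leaving out 1 library. Mga gave 0.017 without the 3 libraries and -0.046 to 0.041 leaving out 1 library. Mlxip gave -0.017 with TMM, -0.015 by edgeR, -0.040 without the 3 libraries and -0.040 to 0.090 leaving out 1 library. The cause was not tested. Depth limits Mxd3, with 11 to 110 reads, most.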
